A study of Mus musculus with 6 samples.

Results

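Tuft cells of the ileum were examined for 10 genes that carry a receptor signal from the plasma membrane to the calcium store and on to a membrane current. They were chosen by name for these roles, out of 23420 genes in the table, with earlier results of these data known. They form 4 classes. The phospholipase C genes are Plcb2, Plcb3 and Plcg2, and the IP3 receptor genes are Itpr1, Itpr2 and Itpr3. The calcium pump genes are Atp2a2 and Atp2a3, and the cation channel genes are Trpm5 and Trpm4. All 10 were found in the table, and all 10 were above 0 in every library. RNA was sequenced in 6 libraries that form 1 group, labelled as mouse replicates 1 to 6, from Gfi1b-eGFP mice (Gfi1b-eGFP/+ in the methods) on the C57BL/6J background, in which 1 allele of the transcription factor gene Gfi1b carries green fluorescent protein and marks tuft cells. Live cells were taken by sorting for GFP and the epithelial surface protein EpCam and against the leukocyte protein CD45. There was no treatment, no other genotype and no sorted non-tuft epithelium among these libraries, so the comparisons are between genes within a library. The labels do not say more than "Mouse Rep" on whether each library is a separate animal. The p-values refer only to how consistently a difference held over these libraries. In sorted bulk samples, fewer cells of a type and less RNA per cell cannot be told apart.

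Phospholipase C cleaves the membrane lipid PIP2 into IP3, which is soluble, and diacylglycerol, which stays in the membrane. IP3 opens IP3 receptors in the endoplasmic reticulum and lets calcium out of the store, and SERCA pumps return it. In taste cells and tuft cells, the released calcium opens TRPM5, a channel for monovalent cations that depolarises the cell, and the route from G protein-coupled receptors through phospholipase C beta 2 to TRPM5 is known as the taste signalling cascade.

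Gene expression was given as TPM, the number of transcripts of a gene out of a fixed total per library, corrected for transcript length. This correction allows levels of different genes to be compared within a library if reads cover whole transcripts, as in SMART-Seq2, the preparation of the methods. The labels add a 3' polyA and a 10X preparation for every library, and with reads from 3′ ends alone it would lower long transcripts relative to short ones, which was not tested. The longest coding transcripts have 4123 bases for Trpm5 and 4234 for Trpm4, and 4606 for Atp2a3 and 4486 for Atp2a2. Among the phospholipases, Plcb2 has 5145 bases, Plcg2 has 4298 and Plcb3 has 4257. The IP3 receptors are longer, with 11679 for Itpr2, 9870 for Itpr1 and 8990 for Itpr3. The 10 genes spanned a wide range of levels. Atp2a3 and Trpm5 were among the most abundant transcripts of the library, with mean levels of 1572 and 1141 TPM, whereas Itpr1 had a mean of 1.59 TPM. In all, 9 of the 10 had a mean of at least 10 TPM, a level reached by 29.8% of the genes in the table. Because the 10 were chosen with earlier results known, this count is no test of them. The 10 genes together took between 0.278% and 0.438% of all TPM.

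**Figure D1:**
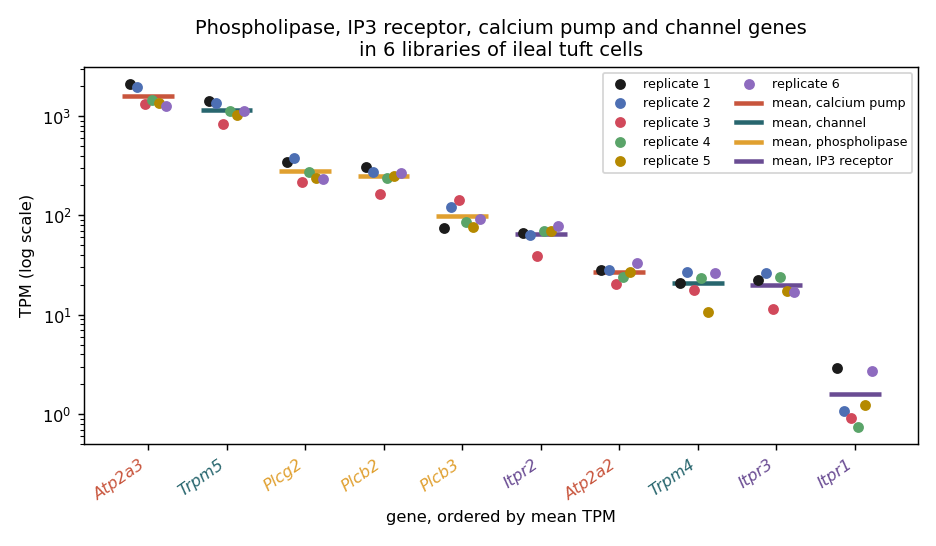
Level of each of the 10 genes in TPM (log axis) in each of the 6 libraries, with points for libraries and bars for the mean over 6, coloured by class. The genes run from Atp2a3 (mean 1572 TPM) down to Itpr1 (mean 1.59 TPM). Replicate 3 is the lowest library for 6 of them, a count that was not made for other genes.

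The phospholipase class was shared by Plcg2 and Plcb2. Plcb2, the enzyme of the taste cascade that G protein beta-gamma subunits activate, is at chr2:118707517-118728438 on the minus strand (ENSMUSG00000040061.17, GRCm38), with 32 exons in its longest coding transcript. Its level was 163 TPM in the lowest library, 256.5 TPM at the median and 309 TPM in the highest (mean 249.4 ± 48.8 TPM, SD, n = 6). Plcg2, an enzyme of another branch that tyrosine kinases activate and that is best known from B cells and mast cells, is at chr8:117498291-117635142 on the plus strand (ENSMUSG00000034330.10), with 33 exons. It had 217 TPM in the lowest library, a median of 257 TPM and 374 TPM in the highest (mean 279.8 ± 64.04 TPM). The ranges of the 2 genes overlapped over most of their length. Within libraries, Plcb2 was higher than Plcg2 in 2 of 6, and the ratio of Plcb2 to Plcg2 ran from 0.731 to 1.14 with a median of 0.886. The difference, Plcb2 minus Plcg2, was -0.16 ± 0.25 in log2(TPM + 1), and its sign varied between libraries (p = 0.219, adjusted p = 0.224, two-sided exact sign-flip permutation test). It ran from -0.45 to 0.19 over the libraries. This was 1 of 45 pairs of the 10 genes, all tested in this way within libraries, and adjusted p-values are by the Benjamini-Hochberg method over the 45.

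Plcb3, a ubiquitous relative of Plcb2 that answers to Gq proteins, stood below both. It is at chr19:6952325-6976470 on the minus strand (ENSMUSG00000024960.9), with 31 exons. Its level was lowest in replicate 1 (75.0 TPM), had a median of 88.3 TPM and was highest in replicate 3 (143 TPM), with a mean of 98.9 ± 27.6 TPM. Plcb2 was higher than Plcb3 in 6 of 6 libraries, with a ratio of 1.14 to 4.11 (median 2.84) and a difference of 1.34 ± 0.63 in log2(TPM + 1) (p = 0.03125, adjusted p = 0.0327, exact sign-flip permutation test). Plcb3 minus Plcg2 was -1.50 ± 0.52, in the same direction in 6 of 6 (p = 0.03125, adjusted p = 0.0327, exact sign-flip permutation test). With 6 libraries there are 64 assignments of signs, 0.03125 is the smallest p the test can give, and it is reached by any pair with the same sign in all 6. The ratio of Plcb2 to Plcb3 was narrowest in replicate 3, the library with the most Plcb3 and the least Plcb2.

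The 3 enzymes held nearly all phospholipase C transcripts. Of the summed TPM of 15 phospholipase C genes, Plcg2 took 41.8% ± 3.62 (SD, n = 6), Plcb2 took 37.5% ± 4.89 and Plcb3 took 15.3% ± 5.55. Together they took between 92.9% and 95.8%. The other 12 genes of the family (the other beta isoforms, Plcg1 and the delta, epsilon, eta, zeta and L types) summed to 28.3 to 44.96 TPM per library, and 1 of the 12 had a mean of at least 10 TPM.

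Among the IP3 receptors, Itpr2 led. Itpr2, the isoform with the highest affinity for IP3, is at chr6:146108299-146502223 on the minus strand (ENSMUSG00000030287.15), with 56 exons. It had 38.8 TPM in the lowest library (replicate 3), a median of 68.3 TPM and 78.2 TPM in the highest (mean 64.5 ± 13.6 TPM). Itpr3, the receptor best known from taste cells, is at chr17:27057304-27122223 on the plus strand (ENSMUSG00000042644.9), with 58 exons. Its level ran from 11.55 TPM, again in replicate 3, over a median of 19.8 TPM to 26.45 TPM (mean 19.8 ± 5.49 TPM). Every library of Itpr2 lay above every library of Itpr3. The ratio of Itpr2 to Itpr3 within libraries was 2.38 to 4.61 (median 3.17), and the difference was 1.67 ± 0.33 in log2(TPM + 1) (6 of 6, p = 0.03125, adjusted p = 0.0327, exact sign-flip permutation test).

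Itpr1, the main IP3 receptor of neurons, was close to the lower end of the scale. It is at chr6:108213096-108551109 on the plus strand (ENSMUSG00000030102.11), with 62 exons, and had 0.74 TPM in the lowest library, a median of 1.155 TPM and 2.90 TPM in the highest. Its rank among genes above 0 was between 9943 and 11714. Itpr2 exceeded it by 4.70 ± 0.47 in log2(TPM + 1), a ratio of 23.0 to 95.2 (6 of 6, p = 0.03125, adjusted p = 0.0327, exact sign-flip permutation test), and Itpr1 minus Itpr3 was -3.03 ± 0.64 with the same p-values. Of the summed IP3 receptor TPM, Itpr2 took 75.1% ± 3.92, Itpr3 took 23.0% ± 4.22 and Itpr1 took 1.84% ± 0.933 (SD, n = 6). All 3 receptors were thus listed above 0, in the same order in every library.

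Of the SERCA pumps, which refill the store, a single gene held nearly all transcripts. Atp2a3 (SERCA3), an isoform known from blood cells and epithelia, is at chr11:72961169-72993044 on the plus strand (ENSMUSG00000020788.15), with 22 exons. It had 1253 TPM in the lowest library, a median of 1396 TPM and 2108 TPM in the highest (mean 1572 ± 363 TPM, SD, n = 6), which placed it between rank 33 and rank 71 among all genes of a library. Replicates 1 and 2 were high, and the other 4 lay between 1253 and 1452 TPM. Atp2a2 (SERCA2), the isoform that nearly every cell uses, is at chr5:122453513-122502225 on the minus strand (ENSMUSG00000029467.15), with 20 exons, and had 20.4, 27.4 and 33.4 TPM in the lowest library, at the median and in the highest (mean 26.8 ± 4.33 TPM). Atp2a3 was 37.5 to 75.2 times as abundant as Atp2a2 within libraries (median 62.5). The difference was 5.81 ± 0.37 in log2(TPM + 1) (6 of 6, p = 0.03125, adjusted p = 0.0327, exact sign-flip permutation test). Atp2a3 took 98.3% ± 0.482 of the summed TPM of the 3 SERCA genes, with a range of 97.4% to 98.7%.

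Of the channels, Trpm5 was the abundant one. Trpm5 is at chr7:143069153-143094642 on the minus strand (ENSMUSG00000009246.14), with 25 exons. It had 839 TPM in the lowest library (replicate 3), a median of 1117 TPM and 1403 TPM in the highest (replicate 1), with a mean of 1141 ± 211 TPM and a rank between 55 and 145. Trpm4, the closest relative of Trpm5 and likewise a calcium-activated channel for monovalent cations, is at chr7:45302632-45333780 on the minus strand (ENSMUSG00000038260.10), also with 25 exons. It had 10.8 TPM in replicate 5, a median of 22.3 TPM and 27.3 TPM in replicate 2 (mean 21.1 ± 6.11 TPM). The channel genes did not come near each other in any library, with Trpm5 at 42.7 to 94.3 times Trpm4 (median 48.4). The difference was 5.73 ± 0.41 in log2(TPM + 1) (6 of 6, p = 0.03125, adjusted p = 0.0327, exact sign-flip permutation test). Trpm5 took 91.6% ± 0.897 of the summed TPM of 26 TRP channel genes and Trpm4 took 1.70% ± 0.440.

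**Figure D2:**
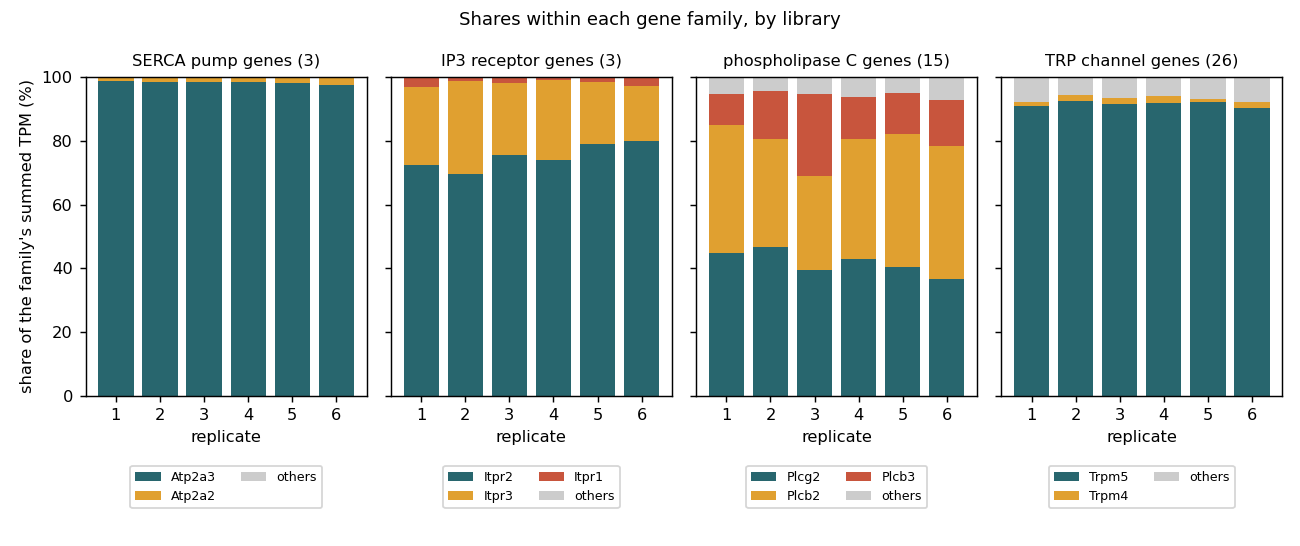
Share in percent of the summed TPM of each gene family (vertical axis) in each of the 6 libraries (horizontal axis), for 3 SERCA pump genes, 3 IP3 receptor genes, 15 phospholipase C genes and 26 TRP channel genes. One gene takes most of the pump, receptor and TRP families (means of 98.3% Atp2a3, 75.1% Itpr2 and 91.6% Trpm5), while Plcg2 and Plcb2 share the phospholipases and Plcb3 reaches 25.9% in replicate 3.

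**Figure D3:**
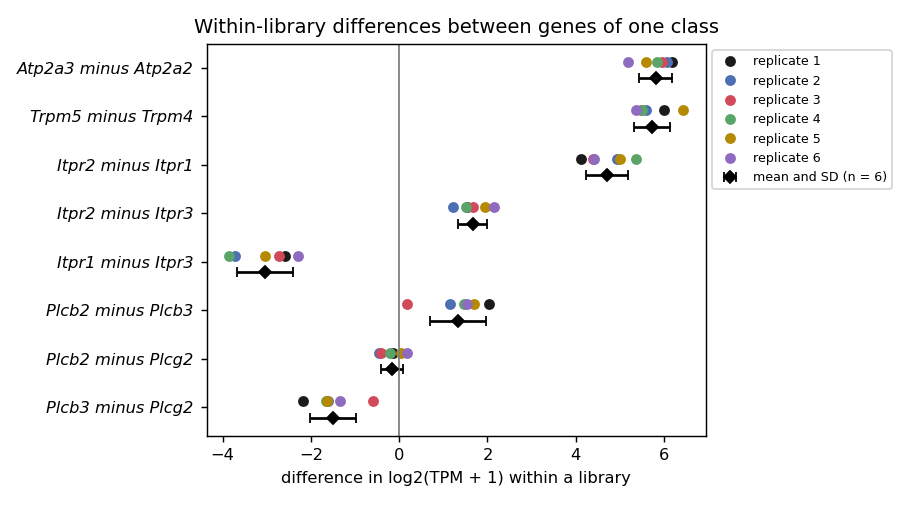
Difference in log2(TPM + 1) within a library (horizontal axis) for the 8 pairs of genes of one class, with points for the 6 libraries and diamonds with bars for the mean and SD. Every pair keeps one sign in all 6 libraries except Plcb2 minus Plcg2, whose mean is -0.16.

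Across classes, the order of mean levels was Atp2a3, Trpm5, Plcg2, Plcb2, Plcb3, Itpr2, Atp2a2, Trpm4, Itpr3 and Itpr1. Of the 45 pairs, 43 kept 1 direction in all 6 libraries and passed the adjusted threshold of 0.05, all at the smallest p of 0.03125 (adjusted p = 0.0327, exact sign-flip permutation test). The 2 exceptions were neighbours in this order: Plcg2 with Plcb2, above, and Trpm4 with Itpr3. Trpm4 exceeded Itpr3 in 3 of 6 libraries, by 0.08 ± 0.47 in log2(TPM + 1) (p = 0.9375, adjusted p = 0.9375, exact sign-flip permutation test), with a ratio between 0.620 and 1.55. The other 7 pairs of neighbours passed, some with small differences in several libraries. Atp2a3 exceeded Trpm5 by 0.45 ± 0.18, with a ratio of 1.12 to 1.58 (median 1.38), but the ranges of their levels overlapped, and an exact Mann-Whitney test, which does not pair values within a library, did not pass (adjusted p = 0.0696). Plcb3 exceeded Itpr2 by 0.60 ± 0.69, a mean smaller than its SD, with a ratio of 1.09 to 3.69 (median 1.19). Replicate 3 had the widest ratio, and without it the mean difference was 0.35. Atp2a2 exceeded Trpm4 by 0.37 ± 0.45, also within 1 SD, with a ratio of 1.02 to 2.49 (median 1.21). Without replicate 5, where Trpm4 was lowest, the mean difference was 0.20, and this pair did not pass the exact Mann-Whitney test either (adjusted p = 0.0974). In these pairs the sign held in every library while the size of the difference did not. The count of 43 was not set beside a count for pairs of other genes. Mean levels ran from 1.59 TPM (Itpr1) to 1572 TPM (Atp2a3). Whether other genes with such a spread of levels keep their order as often was not tested.

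Along the taste route itself, Trpm5 stood far above the enzyme Plcb2 and the IP3 receptors ahead of it. Its level was 4.09 to 5.15 times that of Plcb2 (median 4.61), and 2.19 ± 0.13 higher in log2(TPM + 1). Trpm5 was 14.3 to 21.7 times as high as Itpr2, the leading receptor, and 46.3 to 72.7 times as high as Itpr3. Relative to Plcg2, the enzyme of another branch, Trpm5 was 3.62 to 4.82 times as high (2.03 ± 0.14). Each of these differences was in the same direction in 6 of 6 libraries (p = 0.03125, adjusted p = 0.0327 for each, exact sign-flip permutation test).

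Some ratios between the 10 genes were nearly constant. As a measure, the SD over libraries of the log2 ratio of 2 genes was taken, which for the 45 pairs had a median of 0.459. It was smallest for Atp2a3 and Plcg2 (0.107), followed by Trpm5 and Plcb2 (0.128) and Trpm5 and Plcg2 (0.138). The ratios of Itpr1, the least abundant gene, to the other 9 genes were among the least steady, with SDs between 0.67 and 1.06. The ratios of Plcb3 had SDs of 1.06 with Itpr1 and between 0.52 and 0.70 with the others. Those of Plcb3 with Itpr2 (0.697) and Itpr3 (0.683) were less steady than that of Itpr1 with Atp2a2 (0.670). These SDs are a description over 6 libraries, and all genes of a library share its scaling.

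The sequences upstream of the transcription start are given for the genes of the 2 pairs with the steadiest ratios, Atp2a3 with Plcg2 and Trpm5 with Plcb2, and for Itpr2, the leading receptor. They are the 250 bases before the start in RefSeq (GRCm38.p6), 5′ to 3′ on the strand of the gene, in lower case with each CpG in capitals. Trpm5 is at chr7:143094643-143094892 (minus strand), Plcb2 at chr2:118728439-118728688 (minus strand), Plcg2 at chr8:117498025-117498274 (plus strand), Atp2a3 at chr11:72960919-72961168 (plus strand) and Itpr2 at chr6:146502224-146502473 (minus strand).
Trpm5: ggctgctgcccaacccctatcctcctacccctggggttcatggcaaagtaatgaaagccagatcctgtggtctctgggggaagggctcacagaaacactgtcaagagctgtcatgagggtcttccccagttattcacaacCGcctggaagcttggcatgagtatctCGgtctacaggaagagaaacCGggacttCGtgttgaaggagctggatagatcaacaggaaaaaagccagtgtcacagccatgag
Plcb2: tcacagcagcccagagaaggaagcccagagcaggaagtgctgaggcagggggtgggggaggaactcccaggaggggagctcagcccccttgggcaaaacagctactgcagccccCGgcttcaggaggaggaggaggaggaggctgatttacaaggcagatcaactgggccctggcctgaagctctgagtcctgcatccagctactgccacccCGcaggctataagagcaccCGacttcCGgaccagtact
Plcg2: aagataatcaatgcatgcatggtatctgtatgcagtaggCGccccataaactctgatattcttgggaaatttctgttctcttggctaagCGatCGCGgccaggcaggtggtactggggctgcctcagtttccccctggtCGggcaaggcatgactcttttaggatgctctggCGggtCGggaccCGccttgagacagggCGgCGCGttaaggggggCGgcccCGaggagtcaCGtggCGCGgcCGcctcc
Atp2a3: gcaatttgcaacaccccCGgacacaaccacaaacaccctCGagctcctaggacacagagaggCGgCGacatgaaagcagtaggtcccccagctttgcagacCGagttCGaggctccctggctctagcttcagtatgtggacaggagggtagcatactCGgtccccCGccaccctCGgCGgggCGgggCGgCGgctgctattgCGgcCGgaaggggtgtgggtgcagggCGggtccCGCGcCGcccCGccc
Itpr2: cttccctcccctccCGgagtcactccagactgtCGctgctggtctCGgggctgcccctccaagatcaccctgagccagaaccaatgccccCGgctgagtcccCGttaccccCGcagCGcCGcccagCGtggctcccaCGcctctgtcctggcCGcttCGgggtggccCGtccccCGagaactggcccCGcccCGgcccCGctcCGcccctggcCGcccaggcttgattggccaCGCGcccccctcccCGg
The Trpm5 and Plcb2 sequences are poor in CpG, with 4 each, whereas Plcg2 has 17, Atp2a3 has 20 and Itpr2 has 22. The median over 32851 mouse sequences of this length and position is 6. Trpm5 and Plcb2 were alike in this count, and so were Atp2a3 and Plcg2, whereas Trpm5 and Plcg2, a pair with a nearly as steady ratio, were not. Atp2a3 and Plcb3 had the same count, 20, but the SD of their log2 ratio was 0.518. Whether the count goes with the steadiness of ratios was not tested. The GC content was 52.8% for Trpm5, 62.0% for Plcb2, 59.6% for Plcg2, 66.8% for Atp2a3 and 74.4% for Itpr2. Sequences were found for 7 of the 10 genes, which also include Itpr3 (25 CpG) and Plcb3 (20 CpG). The GC box, GGGCGG on either strand, was in 5 of these 7, all but Trpm5 and Plcb2, and in 32.7% of all such sequences. The octamer ATGCAAAT on either strand was in 1 of 7, Itpr3 (1.601% of all), and TATAAA on either strand in 0 of 7 (12.4% of all). A match to such letters is a description of the sequence and says nothing on binding.

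The levels of the 10 genes moved together over the libraries in part. The SD of log2 TPM was 0.24 for Atp2a2, 0.27 for Trpm5, 0.32 for Atp2a3, Plcg2 and Plcb2, 0.36 for Itpr2 and 0.38 for Plcb3. It was 0.44 for Itpr3, 0.50 for Trpm4 and 0.83 for Itpr1, the least abundant. The median over 6937 genes above 0 in every library whose mean reached 10 TPM was 0.46, and 8 of the 10 lay under it. This set was not matched to the 10 genes in level, and Itpr1, with a mean under 10 TPM, is outside it. Replicate 3 was the lowest library for 6 of the genes, with deviations from the mean log2(TPM + 1) of -0.69 for Itpr2, -0.68 for Itpr3, -0.59 for Plcb2, -0.42 for Trpm5, -0.36 for Atp2a2 and -0.34 for Plcg2. In the same library Plcb3 deviated by 0.57 in the other direction and was at its highest. The highest library was replicate 1 or 2 for 7 of the 10 genes. The share of all genes in the table that were lowest or highest in these libraries was not counted. These counts are therefore not read as a trait of the 10 genes.

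**Figure D4:**
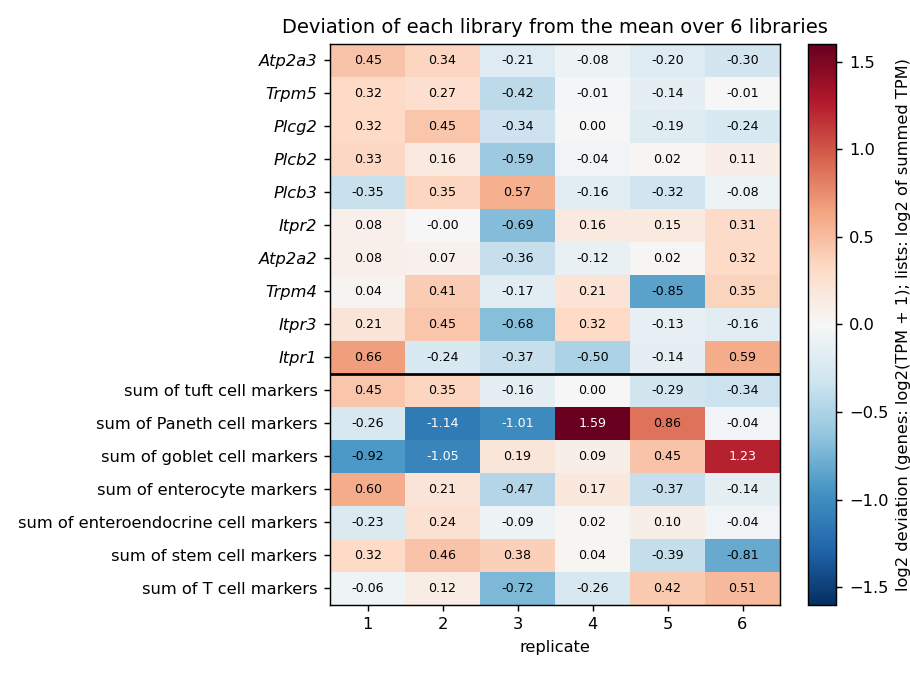
Deviation of each library (horizontal axis, replicates 1 to 6) from the mean over 6 libraries, in log2(TPM + 1) for the 10 genes and in log2 of summed TPM for cell type marker lists below the line, with red for higher and blue for lower. In replicate 3 Plcb3 is at 0.57 while Itpr2 is at -0.69, and the sum of tuft cell markers is at 0.45 in replicate 1 and -0.34 in replicate 6.

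Markers of tuft cells and of other cells are given beside this. All 13 tuft cell markers in the table, led by Alox5ap, Rgs13 and Dclk1, were above 0 in every library. Their sum was 4060 to 7027 TPM, highest in replicates 1 and 2, as Atp2a3, Trpm5 and Plcg2 were, and lowest in replicate 6. The sum in replicate 3 deviated by -0.16, less than Trpm5 or Plcb2 did, but single markers differed there. Rgs13 (718 TPM), Il17rb (245 TPM) and Il25 (41.4 TPM) were at their lowest in replicate 3, and the other markers were lowest in another library. Alox5ap, the most abundant, had 1066 TPM in replicate 3, above replicates 4 to 6. Paneth cell markers (7 of 7 above 0, led by Defa24) summed to 4089 to 26976 TPM and goblet cell markers (7 of 7, led by Zg16) to 1053 to 5118 TPM. Enterocyte markers (8 of 8, led by Fabp1) summed to 7757 to 16298 TPM and stem cell markers (led by Olfm4) to 325 to 782 TPM. Enteroendocrine cell markers, of which 3 of 9 were above 0 in every library, summed to 385 to 537 TPM, mostly from Sct (384 ± 50.5 TPM). The T cell list summed to 122 to 286 TPM, mostly Ptprc and Gzma, with the lowest sum in replicate 3. This sum mixes opposite patterns. Ptprc was highest in replicate 1 (171 TPM) and lowest in replicate 6 (74.2 TPM), as the sum of tuft cell markers was. Gzma was instead lowest in replicate 1 (10.4 TPM) and highest in replicate 6 (158 TPM). The means of Cd3g, Cd3e and Cd8a in this list were 6.95, 4.38 and 2.83 TPM. Myeloid markers summed to 17.2 to 32.1 TPM. B cell markers summed to 0 to 2.42 TPM with Ms4a1 and Mzb1 at 0 in every library. The stromal list summed to 100.2 to 162 TPM, nearly all from Kit (129.9 ± 22.1 TPM), with Myh11 at 0. The part of these cells in the levels of the 10 genes was not tested. Rn45s, the ribosomal RNA precursor, took 23.1% to 32.6% of TPM, and Gm20594 had 15588 to 21283 TPM in replicates 1 to 3 and 51804 to 56441 TPM in replicates 4 to 6. Each lowers the TPM of other genes by the same factor within a library and leaves ratios within a library unchanged.

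Most of the 10 genes share little sequence with other genes. Of the distinct 25-base words in the transcripts of Plcg2 and Trpm4, 0 occurred in another gene, and members of one class shared at most 20 words with each other. Atp2a2 had 6.99% of its words in other genes, mainly in Gm30970, and Itpr1 and Itpr3 had 2.66% and 2.21%, largely in transcripts of the opposite strand. Trpm5 had 4.00%, all with Tssc4, a gene on the opposite strand with which it shares 220 exon bases and which had 61.5 to 109 TPM. Whether the counting used strand is not given in the sources used here, and the share of reads that may have passed between Trpm5 and Tssc4 was not tested. Plcb3 shares 22 exon bases with Ppp1r14b, at 1.01 to 11.7 TPM.

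The genes that act around these 10 were taken from 9 lists of 132 genes, of which 128 were in the table. The lists too were chosen with earlier results of these data known. A mean of at least 10 TPM was reached by 44 of the 128 (34.4%, against 29.8% of the whole table), and 21 were at 0 in every library (16.4%, against 32.9%). The lists differed widely, and genes are named from those whose mean reached 20 TPM.

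Among 10 partners of IP3 receptors, 8 had a mean of at least 10 TPM. Lrmp, a membrane protein of the endoplasmic reticulum that binds IP3 receptors and is known from taste cells and lymphocytes, had 820 ± 201 TPM (SD, n = 6), more than each receptor. The calmodulin genes Calm2 and Calm3 had 887 ± 238 and 137 ± 29.0 TPM. Ahcyl1, which encodes the protein IRBIT that competes with IP3 for its receptor, had 24.9 ± 3.73 TPM and its relative Ahcyl2 had 93.5 ± 23.5 TPM, and Erp44, a chaperone of the store's lumen, had 51.2 ± 17.6 TPM. Mrvi1, a relative of Lrmp, and Tespa1 were at 0 in every library. Of 16 genes for the supply of phosphoinositides and the turnover of IP3, 7 reached 10 TPM, led by the PIP2-forming kinase Pip5k1b at 65.9 ± 16.9 TPM and the inositol monophosphatase Impa1 at 39.0 ± 12.6 TPM.

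Of 20 genes of store refilling and calcium removal, 9 reached 10 TPM and 3 were at 0. Calr, the calcium-binding chaperone of the store, had 309 ± 55.0 TPM. The mitochondrial uniporter Mcu had 71.7 ± 9.94 TPM. The store-operated channel Orai2 had 36.7 ± 11.7 TPM, the store sensor Stim1 had 22.8 ± 6.51 TPM and the plasma membrane pump Atp2b1 had 31.5 ± 5.03 TPM. None of these 20 genes reached the level of Atp2a3 or Trpm5. Of 7 other release channels of internal stores, which include the ryanodine receptors, only Tmco1 reached 10 TPM, at 23.1 ± 6.73 TPM.

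The TRP family beyond Trpm5 and Trpm4 was sparse. Of 24 genes, 11 were at 0 in every library, among them Trpa1, and 2 reached 10 TPM: the lysosomal channel Mcoln1 at 36.6 ± 15.5 TPM and the channel kinase Trpm7 at 31.6 ± 7.77 TPM. Of the large-pore channels that release ATP in taste cells, Calhm1 was at 0 in every library and Panx1 had 20.6 ± 7.08 TPM. A gene listed at 0 in a table without read counts cannot be given a detection limit.

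On the diacylglycerol side, 10 of 23 effector genes reached 10 TPM. The diacylglycerol kinases, which remove it, were led by Dgki at 72.2 ± 20.5, Dgka at 68.9 ± 13.2 and Dgkz at 48.5 ± 10.4 TPM, above the protein kinases C Prkcd (24.0 ± 7.67 TPM) and Prkce (22.1 ± 8.59 TPM). Of 13 genes of the tyrosine kinase route to Plcg2, 5 reached 10 TPM. The exchange factor Vav1 had 368 ± 76.8 TPM, the adaptor Blnk 80.0 ± 23.8 TPM, the Src family kinase Lyn 72.2 ± 19.3 TPM and the kinase Tec 32.4 ± 7.71 TPM.

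**Figure D5:**
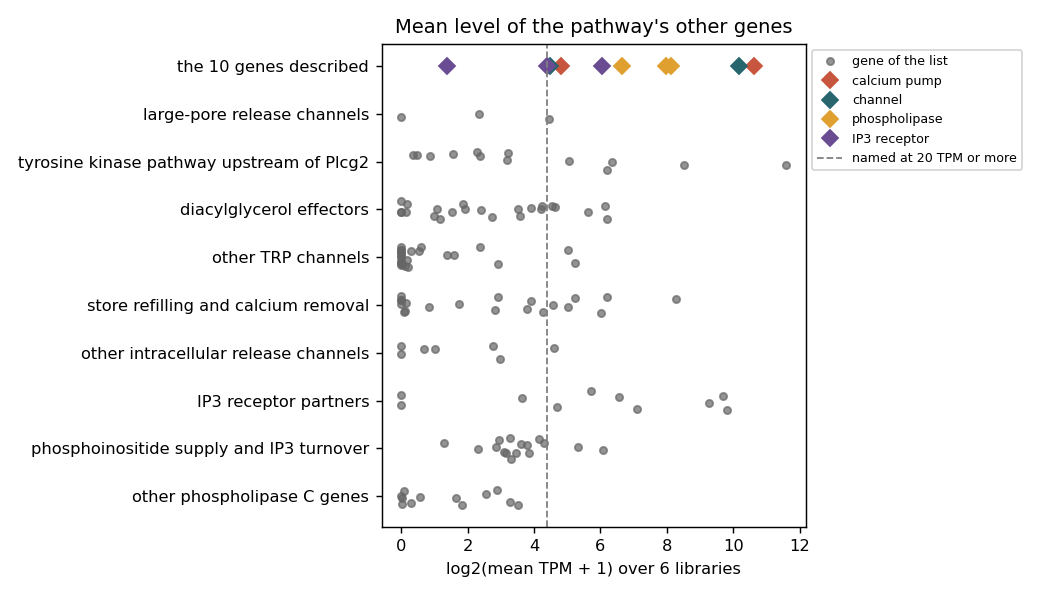
Mean level over 6 libraries, as log2(mean TPM + 1), of the genes of 9 pathway lists (grey points) and of the 10 genes (diamonds, coloured by class), with a dashed line at 20 TPM, the level from which genes are named. Of the 10 genes, 9 lie at a mean of at least 10 TPM, and Itpr1, at 1.59 TPM, lies far to the left.

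The genes whose level followed the leading gene of each class most closely were found by the SD of their log2 ratio to it, among 2080 genes above 0 in every library whose mean reached 50 TPM. For Plcg2 they were Fes (SD 0.0297), Pik3cg (0.0574) and Lgals3 (0.0621), against a median of 0.419 over the candidates, and Atp2a3 held place 15, Trpm5 place 34 and Plcb2 place 334. For Atp2a3 they included Cap1 (0.0596) and Krt18 (0.0672), with Plcg2 at place 19 and Trpm5 at place 146. For Trpm5 they were Rabgap1l (0.0650), Rgs22 (0.0775) and Ifi35 (0.0785), with Plcb2 at place 22, Plcg2 at place 31 and Itpr2 at place 408. For Itpr2 they were Nmrk1 (0.0985), Sema4g (0.1002) and Ugdh (0.111), with Plcb2 at place 32 and Trpm5 at place 97. Plcb3 was far down for each of Trpm5 (place 1489) and Plcg2 (place 1432). Many genes lie close to one another on this measure over 6 libraries, and the order among the first places was not tested.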

How the data were processed

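RNA of sorted ileal tuft cells was amplified by SMART-Seq2 per the methods. For every library, the labels add a 3' polyA and a 10X preparation. The authors aligned paired-end reads to the UCSC mm10 transcriptome with Bowtie and deposited TPM calculated by RSEM, to 2 decimals. The submitters' processing notes also list TopHat. Reads that fit more than 1 transcript are divided among them by RSEM. TPM keeps no read number, so depth is unknown, and neither counting intervals nor count models were used. Genes above 0 numbered 13044 to 13308 per library. All 6 columns were used.

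Within a library, 2 genes were compared by the difference in log2(TPM + 1), with a pseudocount of 1 and no filter on low values, with an exact permutation of its signs (two-sided, 64 assignments). P-values were adjusted over all 45 pairs. Alternatives were other pseudocounts, values under 0.1 TPM set to 0, median-of-ratios scaling, scaling without Rn45s and Gm20594, an exact Mann-Whitney test, adjustment over the 8 pairs within a class, other level thresholds, each library left out, and replicates 1 to 3 or 4 to 6 alone. The use of no pseudocount was added after the data were seen. Named were all 10 genes, pathway genes whose mean reached 20 TPM, up to 3 leading genes per marker list and the 3 genes closest in pattern to the leading gene of each of 4 classes. Genes at 0, the overlapping genes and some single markers were named outside this rule, after their values were seen. Some genes within the rule are not reported here. The 10 genes and all lists were chosen with earlier results of these data known. Positions are from GENCODE M21 (GRCm38) by gene symbol and upstream sequences from RefSeq (GRCm38.p6). Shared 25-base words were counted over GENCODE transcripts. The permutation test was tested on simulated data. Computation used Python 3.11.15 with scipy 1.17.1, numpy 2.4.6 and pandas 2.3.3, and plots were drawn with matplotlib 3.10.9.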

Additional observations from a re-analysis of the deposited data

Results flagged for a closer look

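The share of Plcb3 in the summed TPM of 15 phospholipase C genes was 25.9% in replicate 3, far from the other 5 libraries, which lay between 9.80% and 15.2%. Without replicate 3 the mean share was 13.1%, against 15.3% with it. In that library Plcb3 was at its highest (143 TPM), while Plcb2 (163 TPM) and Plcg2 (217 TPM) were at their lowest. This was 1 of 48 measures screened for a library that stands apart, of which chance would flag about 2.4. Its cause was not tested.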

How the results depend on the processing

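Of the 45 pairs, 43 passed the threshold under every pseudocount, filter and scaling tried. A pseudocount or scaling cannot change which of 2 genes is higher in a library, and no value of the 10 genes was under 0.1 TPM (lowest 0.74). The count of 43 was therefore fixed in advance under these settings and is no test of robustness. With the exact Mann-Whitney test 41 passed, and Atp2a3 with Trpm5 and Atp2a2 with Trpm4 did not. The pair Plcb2 minus Plcg2 (mean -0.16) turned to 0.0118 in replicates 4 to 6 alone, where the ratio of the 2 genes lay on both sides of 1. The number of pathway genes counted as abundant was 61 at 5 TPM, 44 at 10 TPM and 29 at 20 TPM. With TPM rescaled without Rn45s and Gm20594, mean levels rose for 9 of the 10 genes by more than their SD, for example Atp2a3 to 2271 TPM and Trpm5 to 1661 TPM, while ratios within a library did not move. With each library left out in turn, Atp2a3 minus Atp2a2 was 5.73 to 5.93, Trpm5 minus Trpm4 was 5.58 to 5.80, Itpr2 minus Itpr3 was 1.58 to 1.76, Plcb2 minus Plcb3 was 1.204 to 1.57 and Plcb2 minus Plcg2 was -0.23 to -0.10. With 5 libraries no p under 0.0625 is possible, and none was computed. The direction of 44 or 45 of the 45 mean differences was kept with a library left out, 45 in replicates 1 to 3 and 43 in replicates 4 to 6.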
